A study of Mus musculus with 12 samples.

Results

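The genes described here are 10 mouse cytokine genes: Il1a, Il1b, Il1rn, Il18 and Il33 of the interleukin 1 family, Il6, Il11 and Lif of the interleukin 6 family, Il10, and Tnf, which encodes tumour necrosis factor. They were taken by symbol from the deposited count table, and all 10 were found among its 53819 entries. Of these, 9 had enough counts to be tested and Il1a did not. The question was which of them were lost when macrophages were removed from cultured stromal cells and which remained with the stromal cells.

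Interleukin 1 beta, TNF and interleukin 6 are the classical inflammatory cytokines, and activated macrophages are a well known source of the first pair. Il10 encodes the main anti-inflammatory cytokine of macrophages and lymphocytes, and Il1rn encodes the receptor antagonist that blocks interleukin 1 signalling. Interleukin 6, interleukin 11 and LIF all signal through the shared receptor chain gp130 to the transcription factor STAT3, act on osteoblasts and osteoclasts, and can be made by stromal cells. Interleukin 1 alpha, interleukin 18 and interleukin 33 are made without a classical secretion signal, and interleukin 33 is known as a nuclear alarmin of barrier and stromal cells.

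All 12 libraries came from wild-type mice, whose strain, age and sex the labels do not give, and 3 libraries were made per group. Marrow of the hind limbs and pelvis was grown on collagen I and taken after 1 passage, either whole (BM nonsorted) or after flow sorting (BM sorted). The sort kept cells with CD51 and Sca-1 on their surface that lacked CD31, the leukocyte antigen CD45, the myeloid antigen Ly6C and the macrophage antigen F4/80. Cells released by collagenase I from fragments of the hind-limb bones (bone-associated cells, BAC) were used either whole (BAC nondepleted) or after magnetic beads had removed cells with CD45, Ly6C or F4/80 (BAC depleted). The medium was alpha MEM without ascorbic acid under hypoxia, and no stimulus such as endotoxin is named. The source of the cells therefore goes together with the way they were harvested, and flow sorting was used only for marrow and magnetic depletion only for bone.

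Libraries held 27937709 to 32164725 counts, and levels are given as counts per 1000000 counts of a library (CPM). Within groups the correlation of log2 CPM was 0.940 to 0.992. The library BAC depleted 1 stood apart: it held 43406 counts of Xist and 0 counts of Y-linked genes, against at most 16 and at least 4812 in the others, the pattern of female cells there and of male cells elsewhere. Mitochondrial transcripts took 1.82% to 2.62% of counts in BAC depleted and 1.08% to 1.36% elsewhere, and Thbs1 alone took 8.11% in BAC depleted 3. For the members, and for most named genes of the other lists, results on BAC depleted are therefore also given without BAC depleted 1. The labelled cell types were checked against marker lists. The summed level of 7 stromal markers was 31619 to 36160 CPM in BM nonsorted and 43510 to 53612 CPM in BM sorted. In bone it was 24168 to 43964 CPM in BAC nondepleted and 25569 to 28992 CPM in BAC depleted. It was thus higher after sorting, while on depletion the ranges overlapped. The summed level of 10 macrophage markers was 3515 to 4195 CPM in BM nonsorted and 8904 to 10114 CPM in BAC nondepleted, so both whole preparations also held macrophage RNA. It fell to 12.2 to 13.7 CPM in BM sorted and 25.1 to 75.0 CPM in BAC depleted, where Ptprc, Itgam, Fcgr1 and C1qa were at 0 in all 3 libraries. All 10 macrophage markers fell in both purifications. Other cell types had low summed levels: at most 2.67 CPM for neutrophil, 0.299 for T and NK, 0.509 for B, 9.46 for dendritic, 8.32 for endothelial and 23.2 for mast and basophil markers.

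The stretch of 250 bases before the start site is shown for 5 members that carry the results: Tnf and Il1b, which were lost with the macrophages, Il1rn, the highest member per length after purification, Il6, whose level varied most between libraries of a group, and Lif, which was higher in marrow. They come from RefSeq on GRCm38.p6, an older build than the GRCm39 of the counts, and are written 5′ to 3′ on the strand of the gene. Tnf lies at chr17:35202008-35202257 on the minus strand, Il1b at chr2:129371140-129371389 on the minus strand, Il1rn (the first of 3 listed starts) at chr2:24336610-24336859 on the plus strand, Il6 at chr5:30012864-30013113 on the plus strand and Lif at chr11:4257318-4257567 on the plus strand. Capitals mark matches to the motifs searched.
Tnf: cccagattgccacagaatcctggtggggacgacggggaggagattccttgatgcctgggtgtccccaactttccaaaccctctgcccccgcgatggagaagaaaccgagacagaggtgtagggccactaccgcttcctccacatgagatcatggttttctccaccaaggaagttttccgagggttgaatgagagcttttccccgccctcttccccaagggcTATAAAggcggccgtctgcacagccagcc
Il1b: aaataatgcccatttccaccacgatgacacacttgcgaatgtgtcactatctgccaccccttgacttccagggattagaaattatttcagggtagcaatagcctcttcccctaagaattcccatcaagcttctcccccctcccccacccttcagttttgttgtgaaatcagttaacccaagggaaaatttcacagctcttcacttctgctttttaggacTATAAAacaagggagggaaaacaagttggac
Il1rn: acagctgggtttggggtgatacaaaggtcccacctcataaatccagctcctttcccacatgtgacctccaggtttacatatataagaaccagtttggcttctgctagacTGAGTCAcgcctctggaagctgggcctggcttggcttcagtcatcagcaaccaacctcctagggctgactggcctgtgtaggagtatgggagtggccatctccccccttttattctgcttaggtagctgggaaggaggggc
Il6: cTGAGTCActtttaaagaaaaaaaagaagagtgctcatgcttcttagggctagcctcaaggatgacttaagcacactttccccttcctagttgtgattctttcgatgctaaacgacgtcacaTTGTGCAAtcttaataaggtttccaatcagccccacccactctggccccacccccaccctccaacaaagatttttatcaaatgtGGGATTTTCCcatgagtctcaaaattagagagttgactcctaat
Lif: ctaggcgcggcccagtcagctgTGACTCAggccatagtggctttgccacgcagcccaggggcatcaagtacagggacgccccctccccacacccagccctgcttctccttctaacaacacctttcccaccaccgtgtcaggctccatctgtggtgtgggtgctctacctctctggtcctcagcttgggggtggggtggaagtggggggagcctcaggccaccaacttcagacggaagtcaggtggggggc

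The motifs were NF-kB (GGG, any pair of bases, then TTTCC), AP-1 (TGANTCA), PU.1 (GAGGAAGT), C/EBP (TTGCNNAA) and the TATA box (TATAAA), each on both strands. RefSeq listed 13 start sites for 9 of the 10 members, and Il10 had no entry. The capitals in Tnf and Il1b are TATA boxes, which end 24 bases and 26 bases before the start. Those in Il6 are, from the far end, an AP-1, a C/EBP (on the opposite strand) and an NF-kB match, the last at 44 to 35 bases before the start. Those in Il1rn and Lif are AP-1 matches. An NF-kB match was found in 2 of the 13 windows and in 1.41% of all 32851 windows, and the other of the 2 is the third start of Il1rn. AP-1 was found in 5 of 13 against 6.75% of all windows, C/EBP in 2 of 13 against 9.56%, the TATA box in 6 of 13 against 12.4%, and PU.1 in 0 of 13 against 2.44%. Members with several starts enter more than once, and Il1rn has overlapping windows. A match says only that these letters are there.

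Tnf, Il10 and Il1b fell to a few counts or none when macrophages were removed, from marrow and from bone alike. Of the 9 tested members, these 3 fell after sorting and 0 rose, where 6.23% of all tested genes were called, 6.06% lower and 0.166% higher. Il10 and Il1b held 3 to 15 counts a library in BM nonsorted and passed the count filter only through their counts in bone. With only the marrow groups in the fit both failed the filter, and only Tnf was called. Their calls on sorting therefore add little to that of Tnf. The same 3 fell after depletion and 0 rose, where 37.3% of all tested genes were called, 19.9% lower and 17.4% higher. Among all tested genes 5.53% were called lower in both. Calls are adjusted p-values under 0.05 in edgeR's quasi-likelihood test. In the same 3 members every purified library lay below every whole one, as in 16.7% of all tested genes on sorting and 24.9% on depletion. In the other direction this held for Il1rn on sorting, as in 12.1% of all tested genes, and for 0 members on depletion, as in 21.4%. The median log2 fold change of the 9 members was -0.38 on sorting and -0.17 on depletion, beside 0.00 and 0.05 over all tested genes, since the other 6 members moved little or in no common direction.

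**Figure D1:**
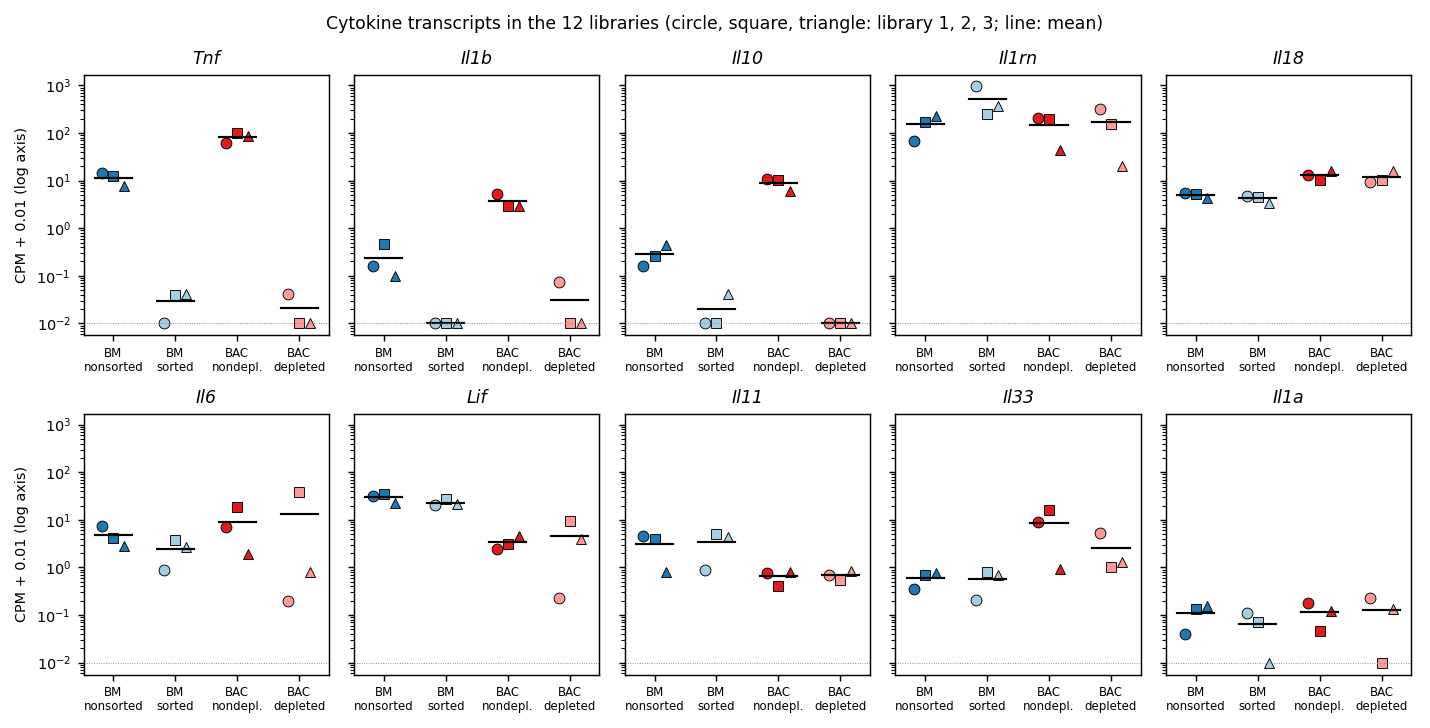
Level of each cytokine gene in each of the 12 libraries, as CPM plus 0.01 on a log axis, with 1 symbol per library, a line at the group mean and a dotted line at 0 counts. Tnf, Il10 and Il1b are detected in the nonsorted and nondepleted groups and at or near 0 in the sorted and depleted groups. Il1rn, Il18, Lif, Il6, Il11 and Il33 are read in all 12 libraries, Il6 and Il33 with as few as 6 counts.

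Tnf stood at 14.4, 12.2 and 7.63 CPM in the 3 BM nonsorted libraries and at 62.2, 98.2 and 86.0 CPM in BAC nondepleted. After sorting, 0, 1 and 1 counts were left, and after depletion 1, 0 and 0. No purified library came near any whole one. Per library size the summed counts differed 543-fold on sorting (95% counting interval 150 to 4488) and 6832-fold on depletion (1226 to 269874). The fitted log2 fold changes were -8.83 ± 0.51 (SE, adjusted p = 1.15e-06) and -12.32 ± 0.55 (adjusted p = 1.12e-07), and -14.27 (4.66e-06) for the depletion without BAC depleted 1.

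Il10 stood at 10.9, 10.3 and 5.90 CPM in BAC nondepleted and at 0.154, 0.254 and 0.439 CPM in BM nonsorted, where the 3 libraries held 5, 8 and 15 counts. BAC depleted held 0 counts and BM sorted 1 count in all. The groups did not overlap in either purification. Il10 was at least 255-fold lower after depletion and 27.3-fold lower after sorting (95% counting interval 4.52 to 1118). The log2 fold changes were -11.09 ± 0.90 (adjusted p = 4.03e-05, and 0.000128 without BAC depleted 1) on depletion and -4.30 ± 0.84 (0.0161) on sorting. The call on sorting was lost without BM nonsorted 3 (adjusted p = 0.0508), BM sorted 1 (0.0659) or BM sorted 2 (0.0716).

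Il1b stood at 5.13, 2.91 and 2.90 CPM in BAC nondepleted and at 0.154, 0.445 and 0.0877 CPM in BM nonsorted. That is 153, 80 and 76 counts from bone but 5, 14 and 3 from marrow, so Il1b was close to its detection limit in whole marrow cultures. BM sorted held 0 counts, and BAC depleted 2 counts, both in BAC depleted 1. Il1b was at least 7.16-fold lower after sorting, and 155-fold lower after depletion (95% counting interval 42.5 to 1285). The log2 fold changes were -5.80 ± 1.37 (adjusted p = 0.0438) on sorting and -7.05 ± 0.94 (0.000687) on depletion, and -9.78 (0.00216) for the latter without BAC depleted 1. The call on sorting was lost without BM nonsorted 1 (adjusted p = 0.0775) or 2 (0.104) and without BM sorted 1 (0.105), 2 (0.113) or 3 (0.11). The exons of Il1b share 25 bases with Il1bos, a gene on the opposite strand, and with the strand setting of the counting unknown their reads cannot be told apart there.

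In these bulk libraries, fewer cells of a type and less RNA per cell cannot be told apart. The share of macrophages in the falls of Tnf, Il10 and Il1b was not tested. The macrophage markers fell in the same libraries, T and NK and B markers summed to at most 0.509 CPM in every library, and the summed 5 endothelial markers stood at 3.22 to 5.04 CPM before and 0.604 to 2.04 CPM after sorting, and at 4.19 to 8.32 before and 0.291 to 5.83 CPM after depletion. Of the 3 endothelial markers tested, 2 were called lower on sorting, and 1 lower and 1 higher on depletion. Beside this, 6.23% and 37.3% of all tested genes were called. The part of endothelial cells was not tested.

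**Figure D2:**
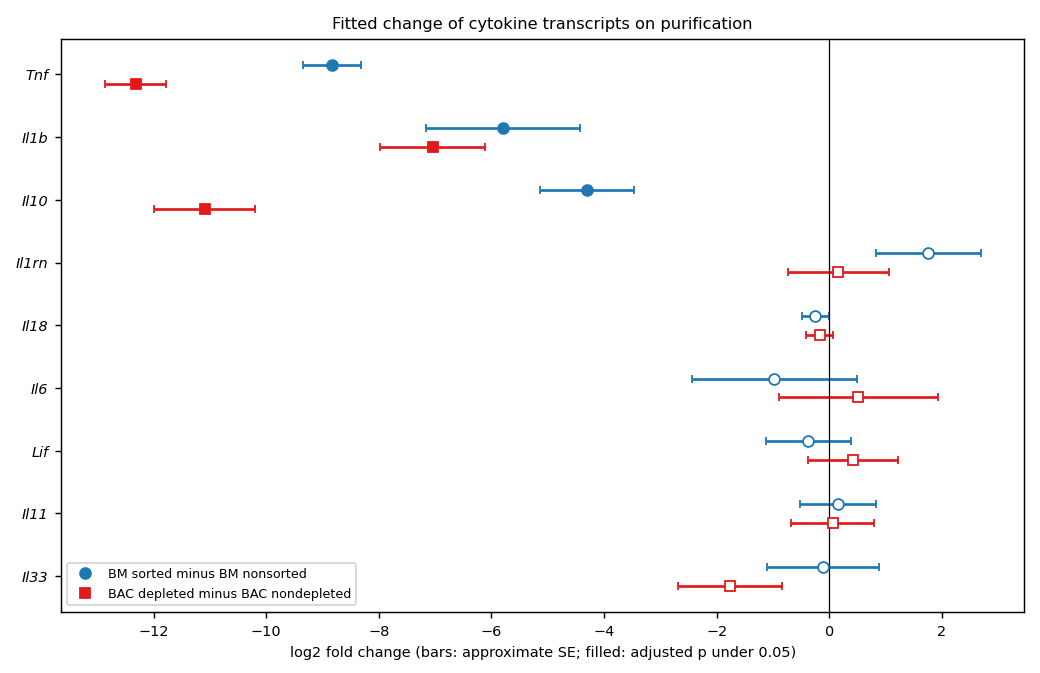
Log2 fold change of the 9 tested cytokine genes on sorting of marrow (circles) and on depletion of bone-associated cells (squares), with bars of 1 SE to each side and filled symbols at an adjusted p under 0.05. Tnf, Il10 and Il1b lie far below 0 in both and are the filled ones.

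The 3 genes lost with the macrophages were all higher in whole bone-associated cells than in whole marrow cultures and their ratios were larger than that of the summed macrophage markers. In this comparison of the 2 unpurified groups, 5 of 9 members were lower in marrow (Tnf, Il10, Il1b, Il18 and Il33) and 2 higher (Lif and Il11), where 31.7% of all tested genes were called, 16.8% lower and 14.9% higher. The level of Tnf was 7.20-fold higher in bone, with a log2 fold change of -2.85 ± 0.29 for marrow minus bone (adjusted p = 0.000325). Il10 was 32.1-fold higher (-4.98 ± 0.55, adjusted p = 0.000763) and Il1b 16.5-fold higher (-3.98 ± 0.72, adjusted p = 0.00521, and -4.87 with 0.0101 without BM nonsorted 2). For all 3, and for Il18 and Il33, each marrow library lay below each bone library, as in 28.7% of all tested genes. Lif lay above in each, as in 27.3%.

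The summed macrophage markers were 2.50-fold higher in BAC nondepleted, at a mean of 9534 CPM against 3812 CPM, and 8 of the 10 markers were called higher there. After the values had been seen, each cytokine was therefore also expressed per 1000 CPM of summed macrophage markers of the same library. Tnf then stood at 3.43, 3.26 and 2.17 CPM in BM nonsorted and at 6.98, 9.71 and 8.97 CPM in BAC nondepleted. The means were 2.96 ± 0.68 and 8.56 ± 1.41 (SD, n = 3), a ratio of 2.89, with an exact two-sided permutation p of 0.1. Il10 stood at 0.0765 ± 0.0447 and 0.953 ± 0.310 CPM, a ratio of 12.5 (exact permutation p = 0.1). Il1b stood at 0.0603 ± 0.0514 and 0.389 ± 0.163 CPM, a ratio of 6.44 (exact permutation p = 0.1). None of the 3 overlapped between the groups, and the share of all tested genes that do not overlap on this scale was not computed. Any complete separation of 3 libraries from 3 gives a p of 0.1, the lowest possible, so this test could not decide. The value adjusted over the 3 genes is also 0.1. The marrow values rest on 5 to 15 counts a library for Il10 and 3 to 14 for Il1b, so these ratios are imprecise.

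**Figure D3:**
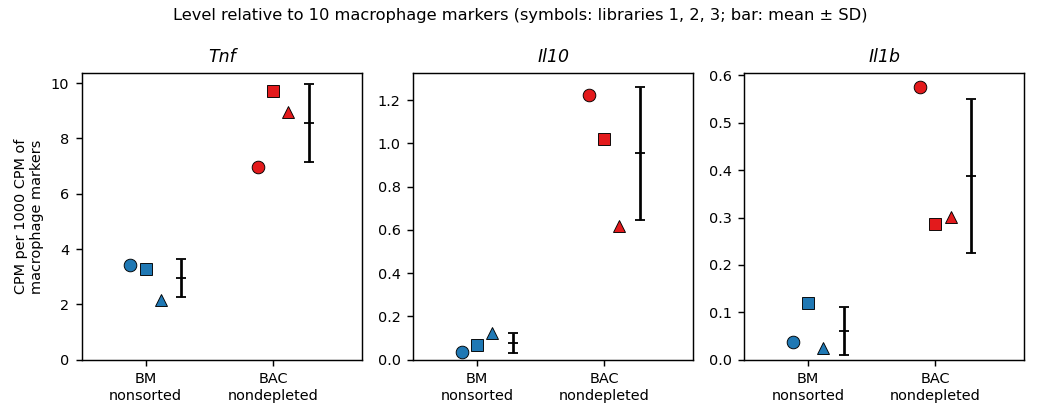
CPM of Tnf, Il10 and Il1b per 1000 CPM of summed macrophage markers in BM nonsorted and BAC nondepleted, on linear axes from 0, with 1 symbol per library and the mean ± SD beside them. All 3 BAC nondepleted libraries lie above all 3 BM nonsorted libraries for each gene, at mean ratios of 2.89 for Tnf, 12.5 for Il10 and 6.44 for Il1b. In BM nonsorted, Il10 held 5 to 15 and Il1b 3 to 14 counts a library.

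Whether sorting and depletion had different effects was tested as the difference of both log2 fold changes. Of the 9 members 0 were called in edgeR's quasi-likelihood test, where 8.06% of all tested genes were, 5.08% with a higher and 2.99% with a lower value on sorting. At an unadjusted p under 0.05 there were 2, Il10 with a difference of 6.79 ± 2.22 (adjusted p = 0.1) and Tnf with 3.49 ± 1.57 (adjusted p = 0.194). The Wald test of DESeq2 called 1 member, Il10 (5.77, adjusted p = 0.0133). Both genes were at 0 to 2 summed counts in the purified groups, so the fitted difference depends on the prior count.

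Il1rn was a different case: an abundant transcript that was read in every purified library and was not called lower in either purification. BM nonsorted libraries held 68.5, 169 and 225 CPM and BM sorted libraries 951, 251 and 361 CPM. Every sorted library was above every nonsorted one, but the first of them stood far above the other pair. The log2 fold change on sorting was 1.76 ± 0.93 (adjusted p = 0.442), which did not pass. BAC nondepleted held 210, 194 and 44.2 CPM and BAC depleted 323, 157 and 20.4 CPM. The range of the first lay within that of the second, and in both groups the third library lay several fold below the others. The log2 fold change on depletion was 0.16 ± 0.90 (adjusted p = 0.902), and -0.75 (adjusted p = 0.584) without BAC depleted 1. With SEs of 0.93 and 0.90 on the log2 scale, a change of about 1 on that scale was not detectable for Il1rn, and even 1.76 did not pass. A partial loss with the macrophages would therefore not have been detected. Between marrow and bone its log2 fold change was 0.04 ± 0.90 before purification and 1.64 ± 0.92 (adjusted p = 0.170) after it, and 2.55 (0.0751) without BAC depleted 1.

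Per length, Il1rn led the members in 3 of the 4 groups. Dividing CPM by the length of the merged exons in kb (GENCODE M21), Il1rn stood at a mean of 27.8 CPM per kb in BM nonsorted, 94.1 in BM sorted and 30.1 in BAC depleted. In BAC nondepleted Tnf was first with 50.1 CPM per kb and Il1rn next with 27.0, with ranges of 37.9 to 59.9 and 7.98 to 38.0 that met at their edge. In BM nonsorted the next were Tnf (6.95), Lif (6.88) and Il18 (4.85 CPM per kb), whose ranges overlapped. In BM sorted Lif (5.30 CPM per kb) and Il18 (4.08) followed Il1rn, at ranges that did not overlap, and Tnf, Il10 and Il1b stood last. In BAC depleted Il18 followed with 11.3 CPM per kb and Il6 with 5.37, whose ranges overlapped with each other and with that of Il1rn.

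Il18, the interferon-gamma inducing cytokine that caspase 1 activates, was the steadiest member. Its levels were 5.38, 5.34 and 4.27 CPM in BM nonsorted and 4.63, 4.55 and 3.43 in BM sorted. In bone it stood at 13.3, 10.1 and 15.7 CPM in BAC nondepleted and at 9.12, 10.0 and 15.7 in BAC depleted. Each library of bone was above each library of marrow, and neither purification separated its groups. The log2 fold changes were -0.25 ± 0.24 on sorting (adjusted p = 0.751) and -0.17 ± 0.24 on depletion (adjusted p = 0.607, and -0.0179 with 0.965 without BAC depleted 1). Between marrow and bone they were -1.38 ± 0.24 before purification (adjusted p = 0.00308) and -1.46 ± 0.25 after it (adjusted p = 0.000978, and -1.61 with 0.000959 without BAC depleted 1). Il18 was 2.61-fold and 2.695-fold higher in bone.

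Between the purified groups, BM sorted and BAC depleted, 3 of 9 members differed: Lif and Il11 were higher in marrow and Il18 lower. Markers of other cell types also differed between these groups: the 4 mast and basophil markers summed to 9.60 to 23.2 CPM in BM sorted and 0.0833 to 0.222 in BAC depleted, the 4 dendritic markers to 8.14 to 9.46 and 2.998 to 4.64, and the 8 neutrophil markers to 2.11 to 2.36 and 0.25 to 1.59. Before purification the mast and basophil markers summed to 4.56 to 17.6 CPM in marrow and were at 0 in bone. These sums rest on few genes. Only 1 of the 4 mast and basophil, 2 of the 4 dendritic and 1 of the 8 neutrophil markers had enough counts to be tested. In BM sorted libraries 1 to 2 of the 4 mast and basophil markers were detected. Whether the sums stand for such cells, and their part in the differences between marrow and bone, was not tested. In this comparison 47.4% of all tested genes were called, 22.9% higher and 24.6% lower in marrow. Lif and Il11 in each marrow library lay above each bone library, as in 26.5% of all tested genes, and Il18 and Il33 below, as in 26.4%. The members' median log2 fold change was 0.64, beside -0.02 over all tested genes.

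**Figure D4:**
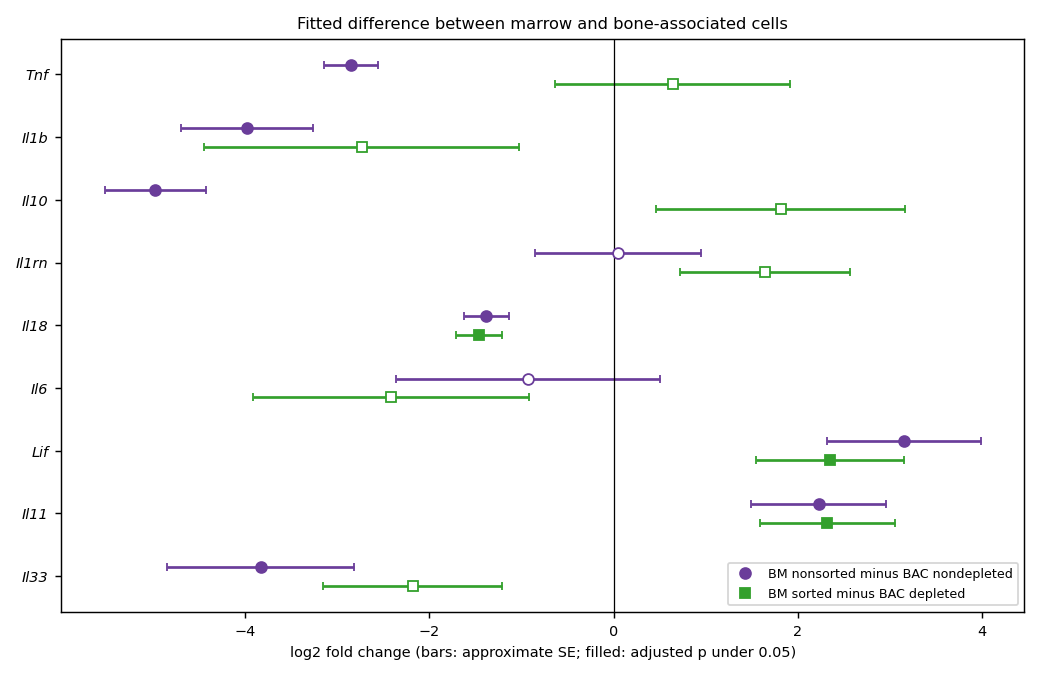
Log2 fold change between marrow and bone for the 9 tested cytokine genes, before purification (BM nonsorted minus BAC nondepleted, circles) and after it (BM sorted minus BAC depleted, squares), with bars of 1 SE to each side and filled symbols at an adjusted p under 0.05. Lif and Il11 lie above 0 and Il18 below 0 in both, while Tnf, Il10 and Il1b lie below 0 before purification and rest on 0 to 2 counts a group after it.

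Lif, which keeps stem cells undifferentiated and acts on bone turnover, marked the marrow cells whether or not macrophages were present. It stood at 32.2, 35.4 and 22.2 CPM in BM nonsorted and at 20.1, 27.6 and 21.5 in BM sorted. In bone it stood at 2.48, 3.05 and 4.61 CPM in BAC nondepleted and at 0.222, 9.54 and 3.87 in BAC depleted. The 6 marrow libraries were all above the 6 bone libraries, and the ratio between the highest and the lowest library was largest in BAC depleted. Before purification Lif was 8.92-fold higher in marrow (log2 3.15 ± 0.83, adjusted p = 0.018), which did not hold with BM nonsorted 2 (0.052) or BAC nondepleted 1 (0.0672) or 2 (0.065) left out. After purification it was 5.25-fold higher (log2 2.35 ± 0.81, adjusted p = 0.0356). That call was lost without BM sorted 1 (adjusted p = 0.0562), 2 (0.0866) or 3 (0.0695) or BAC depleted 3 (0.087), and was kept without BAC depleted 1 (log2 1.77, 0.0069) or 2 (3.53, 0.0068). Neither sorting (-0.38, adjusted p = 0.908) nor depletion (0.43 ± 0.80, 0.699) passed, and depletion gave 0.997 (0.076) without BAC depleted 1 and -0.76 (0.459) without BAC depleted 2.

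Il11, a gp130 cytokine that acts on osteoblasts and fibroblasts, was low in every group. It stood at 4.52, 3.97 and 0.790 CPM in BM nonsorted and at 0.872, 5.00 and 4.44 in BM sorted. All 6 bone libraries lay between 0.400 and 0.833 CPM. In each marrow group 1 library was thus near the level of bone. Il11 was 5.18-fold higher in marrow after purification (log2 2.32 ± 0.73, adjusted p = 0.0244) and 4.63-fold higher before it (2.23 ± 0.73, 0.041). The first call was lost without BM sorted 2 (adjusted p = 0.0809) or 3 (0.0711) or BAC depleted 1 (log2 2.33, 0.0603) or 2 (0.067). The second was lost without BM nonsorted 1 (adjusted p = 0.122) or 2 (0.11) or any BAC nondepleted library (0.0786 to 0.131). Sorting (0.15 ± 0.68, adjusted p = 0.965) and depletion (0.06 ± 0.74, 0.955, and 0.0482 with 0.972 without BAC depleted 1) did not pass.

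Il6 was the most uneven member, and its levels followed single libraries rather than groups. It stood at 7.501, 4.13 and 2.78 CPM in BM nonsorted and at 0.872, 3.71 and 2.72 in BM sorted. In bone it stood at 6.98, 18.5 and 1.87 CPM in BAC nondepleted and at 0.191, 38.2 and 0.791 in BAC depleted. BAC depleted 2 was the highest of the 12 libraries, and the other libraries of its group were the lowest of all. None of the 4 comparisons of groups passed: the log2 fold change was -0.97 ± 1.46 on sorting (adjusted p = 0.862), 0.52 ± 1.42 on depletion (0.794), -2.42 ± 1.501 between the purified groups (0.210) and -0.93 ± 1.43 between the unpurified groups (0.653). Without BAC depleted 2, the change on depletion turned to -4.25 (adjusted p = 0.0189) and that between the purified groups to 2.35 (0.105). Without BAC depleted 1 they were 1.10 (adjusted p = 0.527) and -2.998 (0.0862). Whether Il6 is lost with the macrophages of bone therefore depends on 1 library.

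The libraries of BAC depleted differed in other genes as well, of which Socs3 and Nfkbiz were chosen after their values were seen. Socs3, a feedback inhibitor of gp130 signalling, stood at 25.9, 187 and 451 CPM in the 3 libraries. Nfkbiz, a nuclear co-activator of Il6, stood at 6.35, 101 and 144 CPM. Both were lowest in BAC depleted 1, as were Il6 and Lif, but they were highest in BAC depleted 3, where Il6 was also low (0.791 CPM). Il1rn (323 CPM) and Il33 (5.24 CPM) had their highest value of the group in BAC depleted 1. The part of the source of the cells in this was not tested.

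Il33 was mainly a bone transcript but differed between libraries of bone. It stood at 8.96, 15.9 and 0.914 CPM in BAC nondepleted and at 5.24, 1.02 and 1.29 in BAC depleted. The 6 marrow libraries held 0.201 to 0.778 CPM, all below the 6 of bone. Before purification Il33 was 14.5-fold higher in bone (log2 for marrow minus bone -3.83 ± 1.02, adjusted p = 0.0181), a call lost without BM nonsorted 1 (0.0665) or 2 (0.0594) or BAC nondepleted 2 (0.0625). After purification it was 4.77-fold higher, which did not pass (-2.18 ± 0.97, adjusted p = 0.0899, and -1.06 with 0.396 without BAC depleted 1). On depletion the log2 fold change was -1.76 ± 0.92 (adjusted p = 0.157). It was -2.31 (adjusted p = 0.0404) without BAC nondepleted 3 and -2.89 (0.055) without BAC depleted 1.

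Il1a could not be assigned to either cell type. It held 0 to 7 counts in a library and at most 0.222 CPM, and 222 bases of its exons are shared with Gm14023, a gene on the opposite strand.

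For each tested member, the genes with the most similar levels were found by the root mean square of the differences in centred log2 CPM over the 12 libraries. For Tnf these were Ccl4, a chemokine (0.31), and Slco2b1, a transporter (0.44). For Il10 they were Cd5l, a secreted macrophage protein (0.59), and Nfkbid, a nuclear NF-kB inhibitor (0.70), and for Il1b Nfkbid (0.59) and Fcrl1 (0.62). For Il18 they were Amotl2 and Bbs9 (both 0.25), for Il11 Prkg2 (0.44) and Sema4f (0.48), and for Lif Ripor2 (0.61) and Krt80 (0.72). Il1rn had Ptgfr, a prostaglandin receptor (0.74), and Eda (0.77), and Il33 had Sntg2 (0.73) and Ppl (0.84). Il6 had no close partner, with Dcc at 1.03 and Gpsm3 at 1.18.

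Among the receptor genes, that of interleukin 10 went to almost no counts in both purifications. Il10ra, its ligand-binding chain, held 31.4 to 36.9 CPM in BM nonsorted and 46.4 to 53.1 in BAC nondepleted, but 1 count in BM sorted and 0 in BAC depleted. It was 3223-fold lower after sorting (95% counting interval 578 to 127332) and at least 1399-fold lower after depletion. Il10rb, the shared second chain, fell in both, with log2 fold changes of -1.598 ± 0.146 on sorting (adjusted p = 3.51e-05) and -2.002 ± 0.147 on depletion (4.08e-06). Of the 4 TNF and IL-10 receptor genes, 2 fell on sorting and 4 on depletion, beside 6.06% and 19.9% of all tested genes called lower. The macrophage markers moved with these receptors and with the ligands and sensors described after them, and their part in those falls was not tested.

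Il1r1, the signalling receptor of interleukin 1, was not called in either purification (log2 0.42 ± 0.23 with adjusted p = 0.449, and 0.03 ± 0.23 with 0.929). Its level was 38.2 to 87.2 CPM in the marrow libraries and 199 to 254 CPM in those of bone. Il1rl1, the receptor of interleukin 33, held 194 to 455 CPM in BAC nondepleted, 7.74 to 49.5 in BAC depleted and 5.996 to 11.3 in marrow. It fell by 3.66 ± 0.60 on the log2 scale on depletion (adjusted p = 0.00109), and by 4.42 without BAC depleted 3. Among the 7 tested IL-1 family receptors and decoys 0 were called on sorting, and 1 rose and 3 fell on depletion, beside 6.23% of all tested genes called on sorting and 37.3% on depletion. Il18rap, a chain of the interleukin 18 receptor, fell by 2.69 ± 0.64 (adjusted p = 0.00825), with -3.63 without BAC depleted 3. Il1rap, the shared accessory chain, rose by 1.19 ± 0.39 (adjusted p = 0.0372), a call lost without any of BAC nondepleted 1, 2 or 3 or BAC depleted 2 (0.0629 to 0.136).

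**Figure D5:**
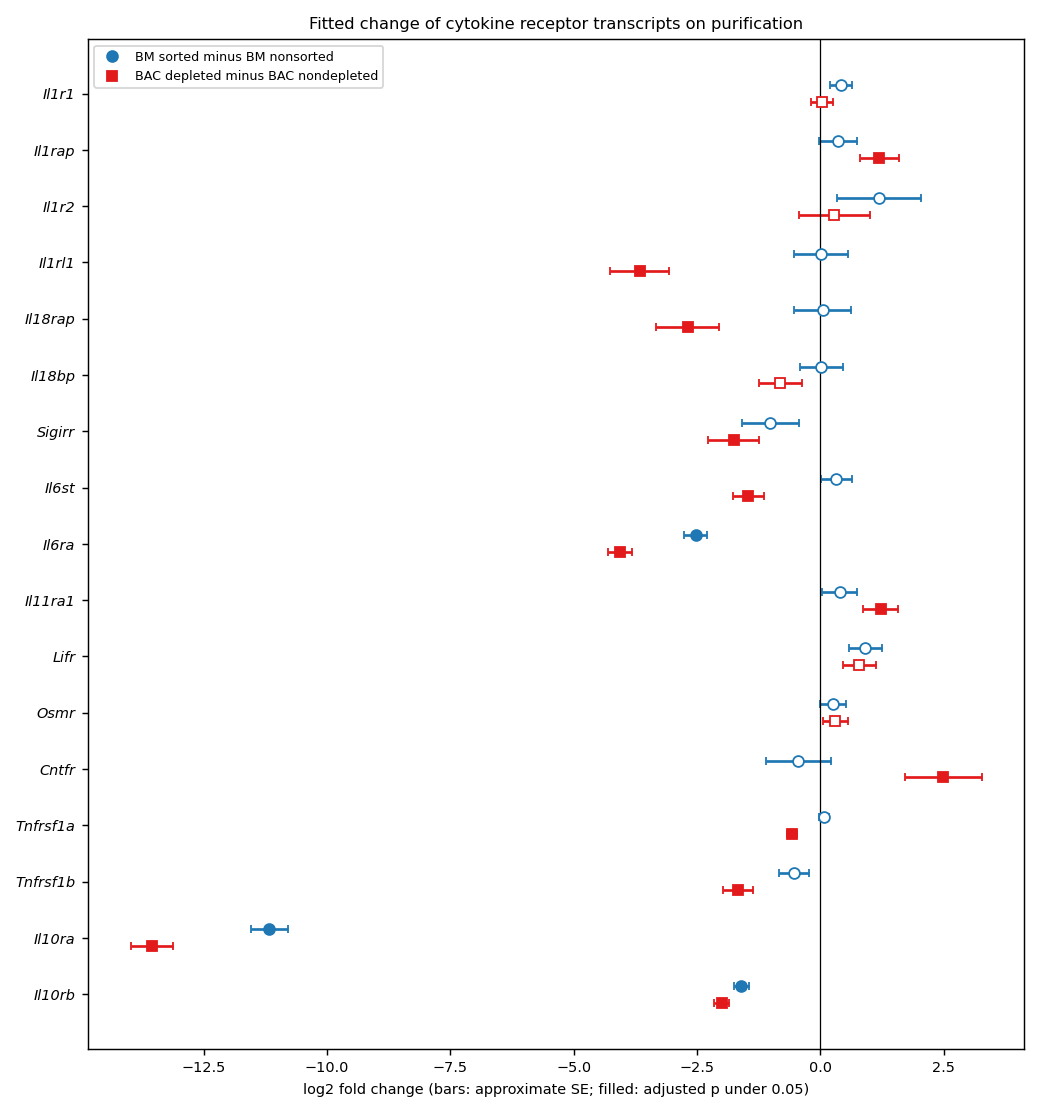
Log2 fold change of 17 tested cytokine receptor and decoy genes on sorting of marrow (circles) and on depletion of bone-associated cells (squares), with bars of 1 SE to each side and filled symbols at an adjusted p under 0.05. Il10ra lies farthest below 0 in both, Il6ra and Il10rb are filled and below 0 in both, and Il1r1 is near 0.

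Il6st, which encodes gp130, held 441 to 446 CPM in BM nonsorted, 542 to 583 in BM sorted, 2313 to 4588 in BAC nondepleted and 673 to 1585 in BAC depleted. It fell by 1.46 ± 0.32 on the log2 scale on depletion (adjusted p = 0.00577), which was lost with only the groups compared in the fit (0.0609). Il6ra, the chain that binds interleukin 6, fell in both, with log2 fold changes of -2.52 ± 0.23 on sorting (adjusted p = 3.46e-05) and -4.06 ± 0.25 on depletion (9.01e-07). It was left at 2.95 to 3.86 CPM in BM sorted and 1.56 to 3.11 in BAC depleted. Il11ra1, the interleukin 11 receptor, rose by 1.22 ± 0.36 on depletion (adjusted p = 0.0223), as did Cntfr, the receptor of ciliary neurotrophic factor (2.50 ± 0.78, 0.0292). With BAC nondepleted 2 (adjusted p = 0.0577) or 3 (0.0754) or BAC depleted 1 (0.069) left out, the first did not pass. The second was lost without any BAC nondepleted library (0.0512 to 0.098), BAC depleted 1 (0.0613) or 2 (0.0542). Of the 6 gp130 receptor genes, 0 rose and 1 fell on sorting, and 2 rose and 2 fell on depletion, beside 6.23% of all tested genes called on sorting and 37.3% on depletion.

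Among other ligands of these families, Osm and Ebi3 were lost in both purifications. Osm, the gp130 cytokine oncostatin M, held 2.43 to 2.89 CPM in BM nonsorted and 16.0 to 23.1 in BAC nondepleted and 0 counts in all 6 purified libraries. It was at least 86.6-fold lower after sorting and at least 565-fold lower after depletion. Ebi3, the shared subunit of interleukins 27 and 35, was at least 74.9-fold and at least 227-fold lower. Of 9 such ligands 5 were tested, of which 2 fell on sorting, and 3 fell and 1 rose on depletion, beside 6.23% and 37.3% of all tested genes called. The riser was Ctf1, cardiotrophin 1 (1.19 ± 0.42, adjusted p = 0.0451), whose call was lost without any of BAC nondepleted 1, 2 or 3 or BAC depleted 1 or 3 (0.0628 to 0.187).

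Of the genes for inflammasome sensors and for the processing of interleukin 1 beta, interleukin 18 and TNF, some fell. Adam17, the gene of the TNF-releasing protease, was 1.14-fold lower after sorting and 1.58-fold lower after depletion, and was called in neither. Casp1, the gene of caspase 1, was 1.37-fold lower after sorting, which was not called. It was 7.20-fold lower after depletion, a call kept in 7 of 13 other fits. Of 12 inflammasome and processing genes, 5 fell on sorting and 8 on depletion, and 0 rose, beside 6.06% and 19.9% of all tested genes called lower. Nlrp3, an inflammasome sensor, went from 17.3 to 25.8 CPM in BM nonsorted to 0.479 to 0.939 in BM sorted, and from 58.2 to 80.6 in BAC nondepleted to at most 0.671 in BAC depleted. Its log2 fold changes were -4.85 ± 0.69 (adjusted p = 0.0012) and -8.24 ± 0.84 (5.14e-05), the latter -14.04 without BAC depleted 2, which held the only counts left in that group, and -7.60 without BAC depleted 1. Nlrp1b, another sensor, was at least 133-fold and at least 277-fold lower.

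Of 18 genes of NF-kB signalling and its inhibitors, 2 fell on sorting and 8 on depletion, and 0 rose, beside 6.06% and 19.9% of all tested genes called lower. Ikbkb, a kinase that activates NF-kB, fell by 0.52 ± 0.09 on sorting (adjusted p = 0.00338). Irak4, a kinase below the interleukin 1 receptor, fell by 0.53 ± 0.12 (adjusted p = 0.0293), a call lost without any BM nonsorted library or BM sorted 2 or 3 (0.0696 to 0.148). Tnfaip3, an NF-kB inhibitor known as A20, went from 31.8 to 45.1 CPM in BAC nondepleted to 2.08 to 5.53 in BAC depleted (log2 -3.35 ± 0.35, adjusted p = 6.71e-05). Nfkbie, another inhibitor, fell by 1.47 ± 0.24 on depletion (adjusted p = 0.00103). Of 8 genes of JAK and STAT3 signalling 0 were called on sorting, and 1 rose and 1 fell on depletion. Beside them 6.23% of all tested genes were called on sorting and 37.3% on depletion. The most abundant of the 8, Jak1, had a log2 fold change of 0.02 ± 0.13 on sorting (adjusted p = 0.975). On depletion Pias3, an inhibitor of STAT3, rose by 0.43 ± 0.12 (adjusted p = 0.0219) and Tyk2, a kinase of cytokine receptors, fell by 0.69 ± 0.19 (0.0194). The call of Pias3 was lost without any BAC nondepleted library or BAC depleted 1 or 3 (0.0534 to 0.0673), and that of Tyk2 without BAC nondepleted 1 (0.0601).

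Without BAC depleted 1, 7 of the falls on depletion described above kept their direction and their call, with log2 fold changes of -3.59 for Il1rl1, -2.50 for Il18rap, -1.65 for Il6st, -3.84 for Il6ra, -1.86 for Il10rb, -3.84 for Tnfaip3 and -1.59 for Nfkbie. For Il1r1, which was not called on depletion, the value of that fit was not kept.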

How the data were processed

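Raw counts per gene were taken as deposited, 1 column for each of 12 libraries made from 50 ng of RNA. Per the submitters' processing notes, the authors' tools were STAR (2.7.9a), Subread (2.0.1) with featureCounts, and MultiQC (1.7), and the build was GRCm39. The annotation release and strand setting were not given in the sources used. The counts entered edgeR 4.0.16 (R 4.3.3) with TMM scaling and filterByExpr. A mean per group was fitted over all libraries with 8 residual degrees of freedom, and contrasts were tested by quasi-likelihood F tests with Benjamini-Hochberg adjustment over 15698 genes. The SE was the absolute log2 fold change over the square root of F. For groups at 0 counts, ratios are bounds from a group floor of 3 counts, and at 1 to 3 counts they carry exact 95% intervals. Both cover counting error only, since amplified reads are not independent molecules. The fit was tested on simulated data.

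Whether the 3 libraries of a group are separate animals or cultures is not in the labels, so p-values reflect spread among these samples only, part of which may be technical. By the counts of Xist and Y-linked genes, BAC depleted 1 did not share an animal with BAC depleted 2 or 3. For the other groups this stays unknown. The members, the lists of receptors, signalling genes and markers and the tests were chosen with earlier results of these data known. Named were all members, from each list up to 2 called genes each way on sorting and on depletion (or the most abundant if none passed), and the 2 closest patterns per member. Socs3, Nfkbiz, Casp1 and Adam17, and Rhbdf2, Pycard and Tnfrsf1a in the closing section, fall outside this rule and were chosen after their values were seen. Other settings tried were upper quartile scaling, size factors of DESeq2, its Wald test (version 1.42.0), no filter or at least 1 CPM in 3 libraries, a fit of only the groups compared, a replicate block, and leaving out each library.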

Additional observations from a re-analysis of the deposited data

Results flagged for a closer look

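For 7 genes of the receptor and signalling lists, the effect of sorting differed from that of depletion in a direct test of the difference (log2 fold change on sorting minus that on depletion, edgeR's quasi-likelihood test). They were 1 of 7 tested IL-1 family receptors and decoys, 2 of 6 gp130 receptors and 1 of 4 TNF and IL-10 receptors. Of 12 inflammasome and processing genes 1 was higher and 1 lower, and of 18 NF-kB genes 1 was called. Among 5 other ligands and 8 JAK and STAT3 genes there were 0. Over all tested genes 8.06% were called, and whether the lists differ from that share was not tested. The differences for Rhbdf2, a partner of the TNF-releasing protease (2.31 ± 0.19, adjusted p = 0.000548), Tnfaip3, the NF-kB inhibitor A20 (3.39 ± 0.47, 0.0041), and Pycard, the inflammasome adaptor (-1.87 ± 0.33, 0.0102), passed with any single library left out. On sorting and on depletion, Rhbdf2 had -0.81 ± 0.13 and -3.12 ± 0.14, Tnfaip3 0.04 ± 0.32 and -3.35 ± 0.35, and Pycard -4.17 ± 0.26 and -2.30 ± 0.23.

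The other 4 did not pass in every such fit. Il6ra differed by 1.53 ± 0.31 (adjusted p = 0.0192), which failed without BM nonsorted 2 (0.0559) or BM sorted 3 (0.0576). Il1rl1, the interleukin 33 receptor, differed by 3.67 ± 0.79 (adjusted p = 0.0234) and failed without any of BM nonsorted 1, 2 or 3, BM sorted 2 or 3 or BAC nondepleted 2 (all at most 0.0609). Tnfrsf1a, the main TNF receptor, differed by 0.64 ± 0.15 (adjusted p = 0.0291), and Il6st by 1.78 ± 0.45 (0.0396). With the replicate block Il1rl1 (0.0517), Tnfrsf1a (0.0522) and Il6st (0.0582) did not pass, nor did Il1rl1 without the low-count filter (0.0563). Tnfrsf1a and Il6st failed without any single marrow library or BAC nondepleted 1 or 2 (0.0547 to 0.0745 and 0.0709 to 0.0908). Flow sorting was used only on marrow and magnetic depletion only on bone, so the method and the source of the cells cannot be told apart in these differences.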

How the results depend on the processing

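Of 70 counts of called members under other settings, 61 stayed within 1.5 times the value reported. On sorting, 1 member was called in place of 3 with only the groups compared (Il1b and Il10 then failed the filter) and 1 with the replicate block, and 1 to 2 with a library left out. With a library left out, 3 to 4 were called on depletion, 1 to 2 between the purified groups, 4 to 7 between the unpurified groups and 0 in the difference of the effects, where the DESeq2 Wald test called 1. The falls of Tnf on sorting and of Tnf, Il10 and Il1b on depletion passed under every setting run. The call of Il1b on sorting was also lost with upper quartile scaling (adjusted p = 0.0524) and the block (0.0843), and that of Il10 with the block (0.0618). Lif lost its call without the filter (0.0988 purified, 0.0621 unpurified) and, between the purified groups, with only those groups in the fit (0.117). Il11 lost it with the block (0.0527 purified, 0.0802 unpurified) and, between the unpurified groups, without the filter (0.0622), and the DESeq2 Wald test called Il33 between the purified groups (-2.21, 0.0302).

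Among the named genes of the other lists, calls on depletion were lost without the filter for Il1rap (adjusted p = 0.1), Il11ra1 (0.0603), Ctf1 (0.0616), Casp1 (0.132) and Pias3 (0.0693). With only the groups compared they were lost for Il1rap (0.121), Il6st (0.0609), Il11ra1 (0.0946), Ctf1 (0.143), Casp1 (0.170), Tyk2 (0.0688) and Pias3 (0.0657), and with the block for Il1rap (0.0675), Cntfr (0.0537) and Ctf1 (0.0729). Irak4 lost its call on sorting with upper quartile scaling (0.0653), without the filter (0.108) and with the block (0.0614).

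Signs turned only for log2 fold changes that had not passed. Without the filter Il1rn had -0.0059 between the unpurified groups and Il18 0.0089 in the difference of the effects, and with the block Il1rn had -0.0185 and Il6 -0.46 on depletion. With a library left out, sorting ran from -0.30 to 0.61 for Il11, from -0.43 to 0.27 for Il33 and from -0.0537 to 0.0686 for Jak1. Depletion ran from -0.20 to 0.21 for Il11, from -0.75 to 0.68 for Il1rn, from -4.25 (adjusted p = 0.0189) to 1.55 for Il6 and from -0.76 to 0.997 for Lif. Il6 ran from -2.998 to 2.35 between the purified groups and from -1.41 to 0.11 between the unpurified groups, where Il1rn ran from -0.39 to 0.40. The difference of the effects ran from -0.36 to 0.55 for Il11, from -0.23 to 0.22 for Il18, from -2.53 to 3.28 for Il6 and from -1.37 to 0.39 for Lif. The cause was not tested.

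The labels do not say whether same-numbered libraries share an animal or a day. Their deviations from the group means correlated at -0.223 to 0.237. With 3 libraries a group and no differently numbered pairs beside them, these values cannot show whether the numbers pair the samples. BAC depleted 1 had the female and BAC nondepleted 1 the male pattern, so these 2 libraries did not share an animal. The block was run as another setting and is given only in this closing section. For Il10 between the purified groups without BM sorted 3, and Il1b without BAC depleted 1, all counts were 0 and no value was possible. The depth, at most 32164725 counts, limits Il1a in all groups and Il1b and Il10 in marrow, where 3 to 15 counts a library stood before sorting.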
